A study of Mus musculus with 6 samples.

Results

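The oligoadenylate synthetase (Oas) genes of the mouse were described in microglia from mice at peak EAE and from naive mice. EAE, experimental autoimmune encephalomyelitis, is a mouse disease used to study multiple sclerosis. The members were taken by symbol from the RNA-seq table: Oas1a, Oas1b, Oas1g, Oas2, Oas3, Oasl1 and Oasl2, which are 7 of its 42303 genes. The rule itself used no measured value, but the members were picked with earlier results of these data known. All 7 were among the 14367 genes whose counts in the libraries summed to 50 or more, and each had at least 53 counts in the naive library alone.

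The peak group came from Ccr2rfp/+::Cx3cr1gfp/+ mice on a C57Bl/6 background that received the MOG 35-55 peptide, from a myelin protein, to induce EAE at 24 to 28 weeks of age, and the naive group was sampled before induction. Both groups carry the same 2 reporter alleles, red fluorescence from Ccr2 and green from Cx3cr1, so 1 copy of each gene is replaced in every animal. Cells were sorted on F4/80 and CD45 and pooled from 30 mice per condition. Each condition had 1 RNA-seq library, of 36561934 counts in peak and 31282093 counts in naive. MiGS, which sequences DNA fragments pulled down by a protein domain that binds methylated CpG, had 2 libraries per condition. With 1 RNA library per condition there was no test of RNA differences: they describe the libraries, and their 95% intervals are exact (Clopper-Pearson) and cover counting error only.

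Oas1, Oas2 and Oas3 proteins bind double-stranded RNA and then join ATP into short oligoadenylates known as 2-5A, a second messenger of the antiviral response. The genes are classic targets of interferon, whose receptors signal through JAK kinases to the transcription factor complex ISGF3, which binds interferon-stimulated response elements in their promoters. Microglia are the resident macrophages of the brain and carry many of the sensors and responders of this system.

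Every member had more RNA in the peak library. Together the 7 genes took 12425 counts in the peak library (339.8 CPM, counts scaled to the library total) and 1005 counts in the naive library (32.1 CPM), an 11.5-fold higher sum in peak after scaling (interval 10.8 to 12.3). All 7 were at least 2-fold higher in peak, as were 12.1% of the 14367 genes tested, and 5 of the 7 were at least 8-fold higher, as were 3.02% of all genes. The share of all genes at least 2-fold lower in peak was 8.91%, with 0 members among them. The split over all genes, 1742 higher and 1280 lower in peak, became 1495 and 1550 with library totals and 1381 and 1738 with upper quartile scaling, while the members stayed at 7 of 7. The median log2 ratio was 3.64 over the members and 0.03 over all genes tested. In bulk samples fewer cells of a type and less RNA per cell cannot be told apart.

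Oas3, which encodes the largest of the synthetases, had 1705 counts in the peak library, against 71 counts in the naive library. That is 22.4-fold more in peak (interval 17.6 to 28.8). Oas2, the middle-sized synthetase of the family, had 2275 peak counts, against 178 naive counts, which is 11.9-fold more (interval 10.2 to 13.9). Oas3 and Oas2 lie side by side on chromosome 5 (120753098 to 120777684 and 120730333 to 120749886, build mm10), 3211 bp apart. The fold of Oas3 was nonetheless 1.88 times that of Oas2 (interval 1.41 to 2.53).

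The members of the Oas1 group spread most. Oas1g (chromosome 5, 120876142 to 120887613) had 1042 peak counts, against 59 naive counts, 16.4-fold more in peak (interval 12.6 to 21.7). Oas1a (120896256 to 120907544) had 1832 peak counts, against 239 naive counts, 7.13-fold more (interval 6.23 to 8.20). Oas1b (120812635 to 120824163) had 319 peak counts, against 116 naive counts, 2.56-fold more (interval 2.06 to 3.19), the smallest fold of the members. RefSeq lists Oas1b of the C57BL/6J reference as a transcribed pseudogene and the other 6 members as protein-coding. Mouse Oas1b is known as a flavivirus resistance gene that many laboratory strains carry in a truncated form. These genes are close paralogs, so reads may have been split between them by the authors' counting, and their separate values are uncertain to that extent.

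The synthetase-like genes encode proteins with a ubiquitin-like tail. Oasl1, which in the mouse has no synthetase activity and restrains translation of Irf7, had 1366 counts in the peak library, against 53 in the naive library. Its fold of 24.0 in peak (interval 18.2 to 32.2) was the largest of the members. Oasl2, which in the mouse does make oligoadenylates, had 3886 peak counts, against 289 naive counts, 12.5-fold more in peak (interval 11.1 to 14.2). The genes form a pair on chromosome 5, Oasl2 at 114896926 to 114912245 and Oasl1 at 114923143 to 114937911, apart from the main cluster.

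The members' folds were set against each other in all 21 pairs, with exact conditional 95% intervals that were not adjusted for the number of pairs. In 16 pairs the interval of the ratio of folds lay beyond 1. The other 5 could not be told apart by counting error: Oasl1 with Oas3 (ratio 1.07, interval 0.736 to 1.57), Oasl1 with Oas1g (1.46, interval 0.981 to 2.18), Oas3 with Oas1g (1.36, interval 0.937 to 1.97), Oas1g with Oasl2 (1.31, interval 0.981 to 1.78), and Oasl2 with Oas2 (1.05, interval 0.862 to 1.28). Oas1a and Oas1b differed from each other and from each of the other 5, with Oas1a 2.79 times Oas1b (interval 2.15 to 3.61). Among all genes tested, Oasl1 ranked 155 and Oas3 ranked 170 from the highest log2 ratio, and Oas1b ranked 1185.

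Levels between genes were compared per length, by the FPKM values the authors deposited. Oas1a was the highest member in both libraries, with 26.6 FPKM in peak and 4.05 FPKM in naive. In the peak library it was followed by Oasl2 (16.7 FPKM), Oasl1 (14.3), Oas2 (13.98), Oas1g (12.2), Oas3 (6.60) and Oas1b (4.38). Of neighbours in that order, only Oasl1 and Oas2 had overlapping counting intervals (13.6 to 15.1 and 13.4 to 14.6 FPKM). In the naive library Oas1a was followed by Oas1b (1.86 FPKM), Oasl2 (1.45), Oas2 (1.28), Oas1g (0.806), Oasl1 (0.650) and Oas3 (0.321), and the intervals of Oas1b and Oasl2, of Oasl2 and Oas2, and of Oas1g and Oasl1 overlapped.

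The make-up of the family differed between the libraries. Oas1a held 28.1% of the summed FPKM of the members in peak and 38.9% in naive. Oas1b held 4.62% in peak and 17.9% in naive, and it stood last of the members in peak and next to Oas1a in naive. Oasl1 held 15.1% in peak and 6.24% in naive. The highest member stood 6.07-fold above the lowest in the peak library and 12.6-fold in the naive library. In the naive library these were low levels: Oas3 exceeded 5.93% and Oas1a 41.1% of the genes tested in FPKM, against 52.6% and 86.1% in the peak library.

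**Figure D1:**
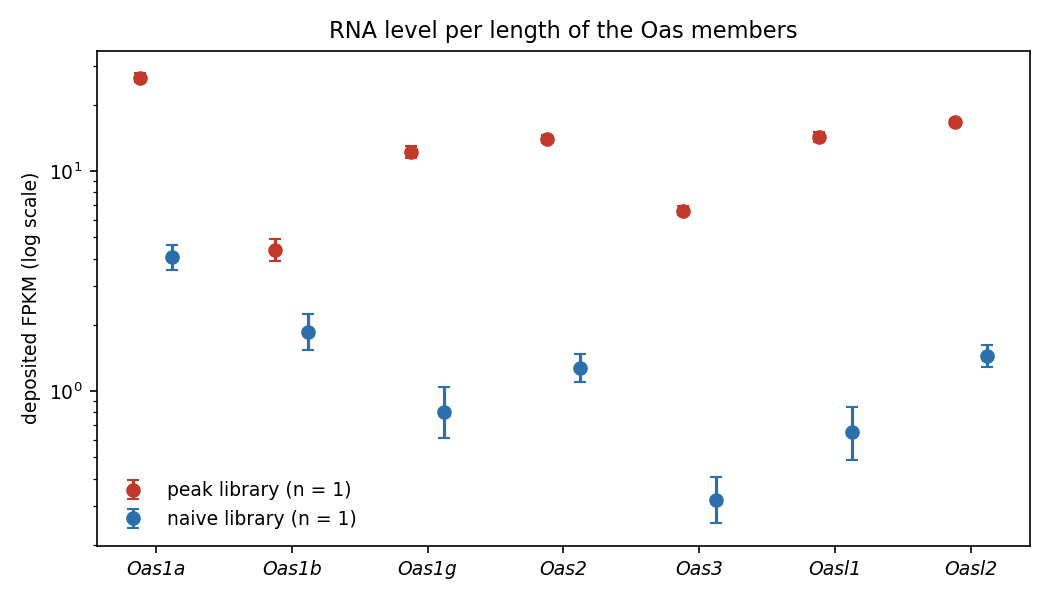
Deposited FPKM (log scale) of the 7 Oas members in the peak library (red, left) and the naive library (blue, right), with bars for exact Poisson 95% counting intervals and 1 library per condition. Every peak point lies above its naive point, from 26.6 and 4.05 FPKM for Oas1a to 6.60 and 0.321 FPKM for Oas3, and the gap is narrowest for Oas1b.

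The rest of the Oas1 group had few counts or none. Oas1c, which begins 94 bp from Oas1b, had 130 peak counts, against 48 naive counts, 2.52-fold more in peak (interval 1.80 to 3.59). Its fold was close in size to that of Oas1b. Oas1d, Oas1e, Oas1f and Oas1h lie in the same cluster and had 0 counts in both libraries, which allows up to 0.0821 CPM in peak and 0.0959 CPM in naive. The whole cluster from Oas2 to Oas1d spans 191 kb. Genes with and without counts were interleaved in it, since Oas1f and Oas1h lie between Oas1b and Oas1g.

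Of the 3 nearest genes with at least 50 counts on each side of the main cluster, none was 2-fold higher in peak. Of all genes tested 12.1% were, so a count of none among so few genes is only a description. The neighbours lay 18.5 to 118 kb from the cluster on the Oas2 side and 209 to 298 kb on the other side. Dtx1, a Notch pathway ubiquitin ligase gene, was 2.26-fold lower in peak (50 peak and 105 naive counts, interval 1.60 to 3.23). Rita1, Ddx54, Ptpn11, Rpl6 and Hectd4 were neither 2-fold higher nor lower, with log2 ratios between -0.69 and 0.57. Beside Oasl1 and Oasl2, 2210016L21Rik, 4.24 kb from Oasl1, had 614 peak and 479 naive counts. The other neighbours of the pair ranged in log2 ratio from -0.68 for Sppl3, an intramembrane protease gene, to 1.31 for Rpl37rt. Rpl37rt, 165 kb from the pair, was 2.49-fold higher in peak (7909 peak and 2962 naive counts).

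Promoter sequence was available for 5 of the 7 members. The RefSeq windows (build GRCm38.p6, 250 bases before to 50 after the start) were searched on both strands for a pair of GAAA boxes with any 2 bases between them, the core of the interferon-stimulated response element. It was found in 3 of the 5, Oas1a, Oas1g and Oas3, and in 3.44% of all 32851 promoters in the table. The start used is that of the promoter table, which in Oasl1 lies 97 bp inside the gene coordinates given above, in Oas3 25 bp, in Oas1a 19 bp and in Oasl2 8 bp. The 150 bases before that start are shown for all 5, because they show which members carry the element and where. Capitals mark such a pair of boxes:
Oas1a, chr5:120907526-120907675, minus strand: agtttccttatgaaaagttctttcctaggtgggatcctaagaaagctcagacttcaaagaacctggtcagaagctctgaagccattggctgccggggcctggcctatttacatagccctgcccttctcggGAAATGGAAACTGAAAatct
Oas1g, chr5:120887614-120887763, minus strand: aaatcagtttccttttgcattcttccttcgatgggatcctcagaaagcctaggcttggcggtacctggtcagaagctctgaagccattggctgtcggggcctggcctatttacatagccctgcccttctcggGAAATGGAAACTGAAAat
Oas3, chr5:120777660-120777809, minus strand: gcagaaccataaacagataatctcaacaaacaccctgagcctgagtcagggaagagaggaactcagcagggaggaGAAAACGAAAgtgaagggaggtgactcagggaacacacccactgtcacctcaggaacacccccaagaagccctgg
Oasl1, chr5:114923090-114923239, plus strand: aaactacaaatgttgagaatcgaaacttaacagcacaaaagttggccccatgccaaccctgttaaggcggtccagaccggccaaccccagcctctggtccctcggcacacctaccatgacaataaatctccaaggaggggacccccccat
Oasl2, chr5:114896784-114896933, plus strand: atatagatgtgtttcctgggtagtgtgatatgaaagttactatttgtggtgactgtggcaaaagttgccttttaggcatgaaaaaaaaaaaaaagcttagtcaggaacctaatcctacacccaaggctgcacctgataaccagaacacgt

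Oas1a and Oas1g carried overlapping matches that join into a longer run, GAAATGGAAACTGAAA, at bases -20 to -5 of Oas1a and -18 to -3 of Oas1g, counted from the start. This pattern of 3 GAAA boxes with 2 bases between neighbours contains the pair, and it occurred in 0.116% of all promoters, 38 of 32851, and Oas1c was another of them, on the other strand at bases -114 to -99. The 250-base upstream windows of Oas1a and Oas1g were 82.8% identical over 256 aligned columns, gaps included, the closest pair among the Oas promoters. Oas3 held GAAAACGAAA at bases -75 to -66, and a tighter GAAANGAAA (3.17% of promoters) just after the start, at bases 4 to 12. For Oasl1 and Oasl2 these letters were not in this window. The genes with the longer pattern outside the Oas family included 5 of 16 measured ones at least 2-fold higher in peak (31.3%), against 12.1% of all genes, which is a description and not a test. Folds differed among members with the same match: Oas1a and Oas1g share the same run at nearly the same place and were 7.13-fold and 16.4-fold higher in peak.

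Of 3 genes that act on oligoadenylates or their pathway, 0 were 2-fold higher and 0 lower in peak under any of the 5 scalings, with a median log2 ratio of 0.27. Abce1, whose product recycles ribosomes and has also been tied to this pathway, had 4387 peak and 2852 naive counts, 1.43-fold more in peak (interval 1.37 to 1.501). Pde12, a phosphodiesterase that degrades oligoadenylates, was 1.21-fold higher (1046 peak and 806 naive counts, interval 1.10 to 1.33). Akap7, an anchoring protein with the same activity in the mouse, had 618 peak and 570 naive counts (ratio 1.01, interval 0.899 to 1.13), and its log2 ratio ranged from -0.19 to 0.05 over the scalings.

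The list of other genes of nucleic acid sensing holds sensors with the adaptors, enzymes and transcription factors that act with them. Of its 12 genes 6 were at least 2-fold higher in peak and 0 lower, with a median log2 ratio of 0.89. Zbp1, a sensor of left-handed nucleic acid that triggers cell death, had 4438 peak and 75 naive counts (55.1-fold, interval 43.8 to 70.2). Irf7, the factor whose translation Oasl1 restrains, had 5684 peak and 341 naive counts (15.5-fold, interval 13.9 to 17.4). Dhx58, a helicase of the RIG-I family, was 5.01-fold higher and Eif2ak2, the kinase PKR that halts translation on double-stranded RNA, 3.63-fold. Cgas, a DNA sensor with the same enzyme fold as Oas proteins, had 1934 peak and 895 naive counts (2.01-fold, interval 1.86 to 2.18), and it fell short of 2-fold with library totals, upper quartile scaling or TMM over genes with at least 50 counts. Mavs, the adaptor of the RNA helicases, had 1972 peak and 2659 naive counts, a log2 ratio of -0.53.

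Of 12 genes of the interferon receptors and the factors below them, 4 were at least 2-fold higher in peak and 1 lower, with a median log2 ratio of 0.46. The feedback inhibitor Socs1 had 816 peak and 92 naive counts (8.26-fold, interval 6.65 to 10.4), and Usp18, which damps the interferon receptor, was 7.43-fold higher. Stat2, a subunit of ISGF3, was 5.49-fold higher and the transcription factor Irf1 5.30-fold higher. The receptor genes Ifnar1 and Ifnar2 had log2 ratios of 0.16 and 0.07, which turned negative with upper quartile scaling, and for Ifnar2 also with library totals. Ifngr1, the ligand-binding chain of the interferon gamma receptor, had 18195 peak and 34016 naive counts (2.01-fold lower, interval 1.97 to 2.05), short of 2-fold with DESeq2 size factors. Ifnb1 had 32 counts in the peak library and 0 in the naive library. Ifng had 16 counts in peak and 1 in naive, and Ifna4 and Ifna2 had at most 1 count in either library.

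The members were set beside 18 other interferon-induced antiviral genes, whose log2 ratios ran from 1.23 to 4.30, against 1.35 to 4.57 for the members. All 18 were at least 2-fold higher in peak under each of the 5 scalings, with a median log2 ratio of 2.53, against 3.64 for the 7 members, and no test was made of this gap. Ifit2, which binds RNA and blocks translation, was highest at 19.7-fold (9013 peak and 425 naive counts), followed by Ifi27l2a at 18.4-fold and Ifi44 at 15.2-fold. Isg15, a ubiquitin-like modifier, was 10.7-fold higher. The 5 genes outside the family whose levels in both libraries lay nearest to the members' median (distance in log2 scaled CPM, over 2 libraries) were Pstpip1 (0.0771), Cdk1 (0.108), Racgap1 (0.181), Cenpf (0.279) and Hist1h4k (0.289).

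**Figure D2:**
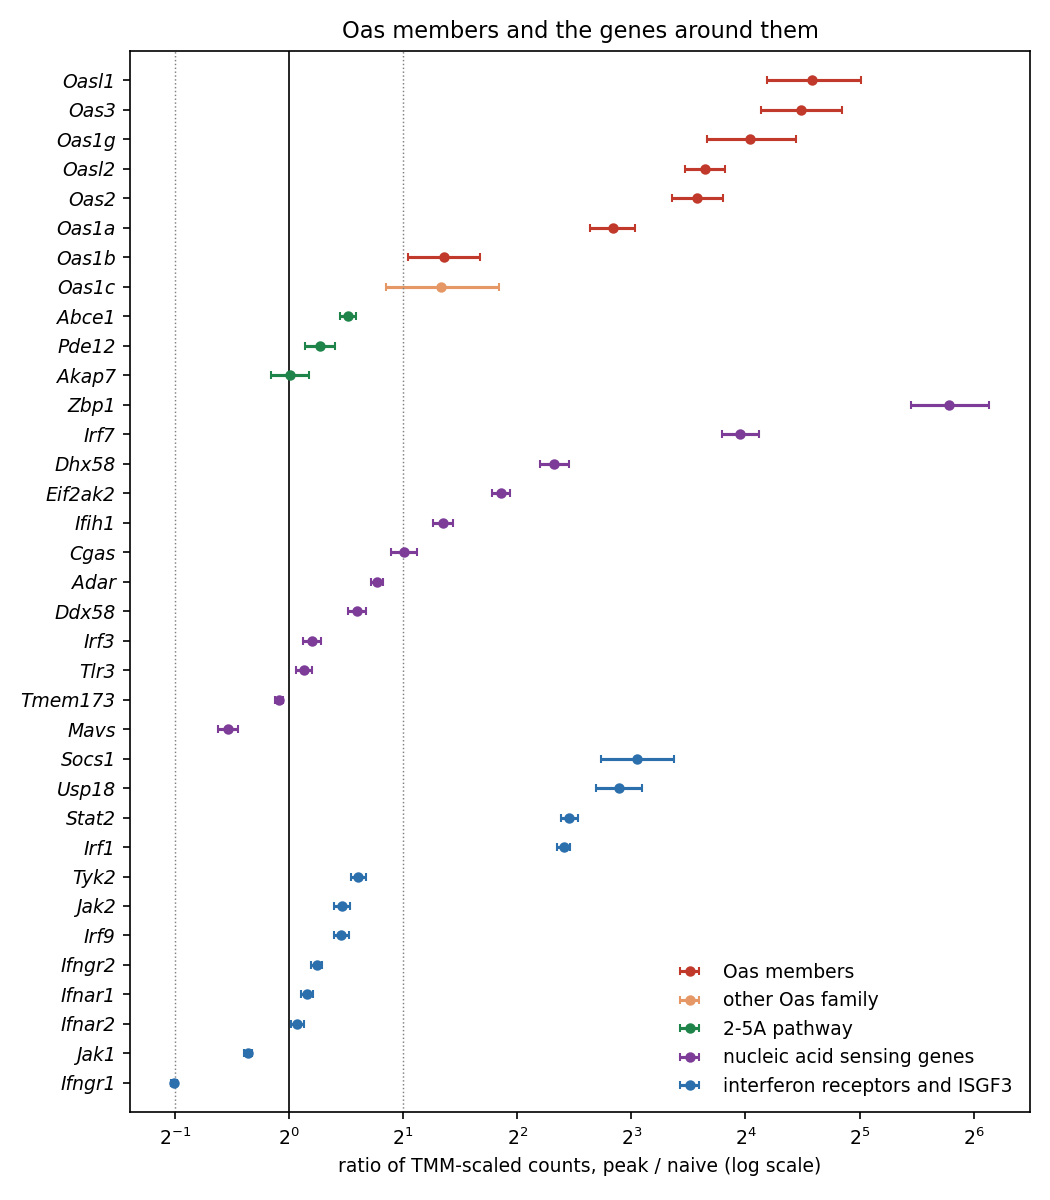
Ratio of TMM-scaled counts, peak over naive (log scale), with exact 95% counting intervals, for the 7 Oas members, Oas1c, 3 genes of the oligoadenylate pathway, 12 genes of nucleic acid sensing and 12 genes of interferon receptors and ISGF3. Dotted lines mark 2-fold lower and 2-fold higher; all 7 members lie to the right of both, from 2.56-fold (Oas1b) to 24.0-fold (Oasl1), and Akap7 sits at 1.01.

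The sorted cells had the markers of microglia in both libraries. The 9 microglia markers measured took 26842 CPM in peak and 42850 CPM in naive, each gene had at least 14308 counts in each library, and the median log2 ratio was -0.88. The 10 monocyte markers took 1156 CPM in peak and 133 CPM in naive, with 7 of 10 at least 2-fold higher, among them Ly6c2 with 338 peak and 5 naive counts, and none was at 0 in either library. Fn1 alone held 35840 of the 42253 peak counts, and without it the other 9 took 175 CPM in peak and 107 CPM in naive. Of 7 T cell markers, which took 9.27 CPM in peak and 3.16 in naive, Cd3e and Cd8a were at 0 in naive, and the 3 with at least 50 counts were all 2-fold higher. Neutrophil markers took 18.4 CPM in peak and 17.6 in naive (1 of 5 higher, 2 lower), and B cell markers took 14.8 CPM in peak and 21.6 in naive (0 of 1 tested higher). Dendritic cell markers, which share Siglech with microglia, took 742 CPM in peak and 1506 in naive (0 of 4 higher, 1 lower). Astrocyte markers took 259 CPM in peak and 482 in naive (1 of 4 higher, Gfap, and 2 lower), and endothelial markers took 35.8 CPM in peak and 88.1 in naive (0 of 4 higher, 3 lower). The part of these cells in the higher Oas counts was not tested.

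MiGS asked whether the same genes differed in captured, methylated DNA. The deposited values are reads per 50 bp window times 1 factor per library. Peak replicates 1 and 2 had 43970332 and 35285601 reads over listed windows, and naive replicates 1 and 2 had 30424742 and 36501153. The value of 1 read was 0.828 and 0.816 in the peak libraries, and 1.135 and 1.161 in the naive libraries. Naive replicate 2 had more reads than peak replicate 2 and a larger factor, so the factors did not equalize the library totals over listed windows. Every one of the 2915907 windows listed for any library on chromosomes 1 to 19 had at least 3 reads in at least 1 library, so a window that is not listed may still have held fewer reads, and sums leave such reads out. Sums over windows also count a fragment more than once, because it spans several of them. The study calls the libraries biological replicates but does not say whether each had its own pool of mice, so the p-values reflect how far these libraries vary, which may be technical. Limma called 0% of 17998 gene ends and 0% of 25495 gene bodies at an adjusted p of 0.05, with 895 and 1074 at an unadjusted p under 0.05. On the recovered reads, edgeR and DESeq2 called 0 of each as well, and no member passed.

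No window within 1 kb of the start of Oas1a, Oas1g or Oas1c was listed for any library, so capture there was not detectable at this listing threshold. Oas2 was the member with lower signal at its gene ends in peak. Its values there were 40.6 and 22.0 in the peak libraries, against 86.3 and 58.1 in the naive libraries. The groups did not overlap, and the log2 change was -1.21 (SE 0.60, limma, adjusted p = 0.897).

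Oas3 and Oasl1, whose RNA folds were the largest, had higher values at their ends in both peak libraries. At Oas3 the values were 79.5 and 47.4 in the peak libraries, against 22.7 and 31.4 in the naive libraries (log2 change 1.17, SE 0.63, limma, adjusted p = 0.897). At Oasl1 they were 68.7 and 78.4 in the peak libraries, against 47.7 and 33.7 in the naive libraries (log2 change 0.86, SE 0.57, limma, adjusted p = 0.897). In both genes every peak library lay above every naive library, and neither difference passed the test. Over all gene ends the median log2 change was 0.18, and 57.5% had a change above 0. The share of all gene ends whose groups did not overlap was not counted. Non-overlap at the ends of Oas2, Oas3 or Oasl1 is therefore only a description of these libraries. At Oasl2 naive replicate 2 had 0 and naive replicate 1 had 17.0, against 25.7 and 16.3 in the peak libraries, so the groups overlapped. Oas1a, Oas1b and Oas1g had under 20 reads at their ends and were not tested there. Gene ends here take in 1000 bp beyond each end and 500 bp within. Ends of 2000 bp beyond and 1000 bp within turned the change at Oasl1 to -0.54.

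**Figure D3:**
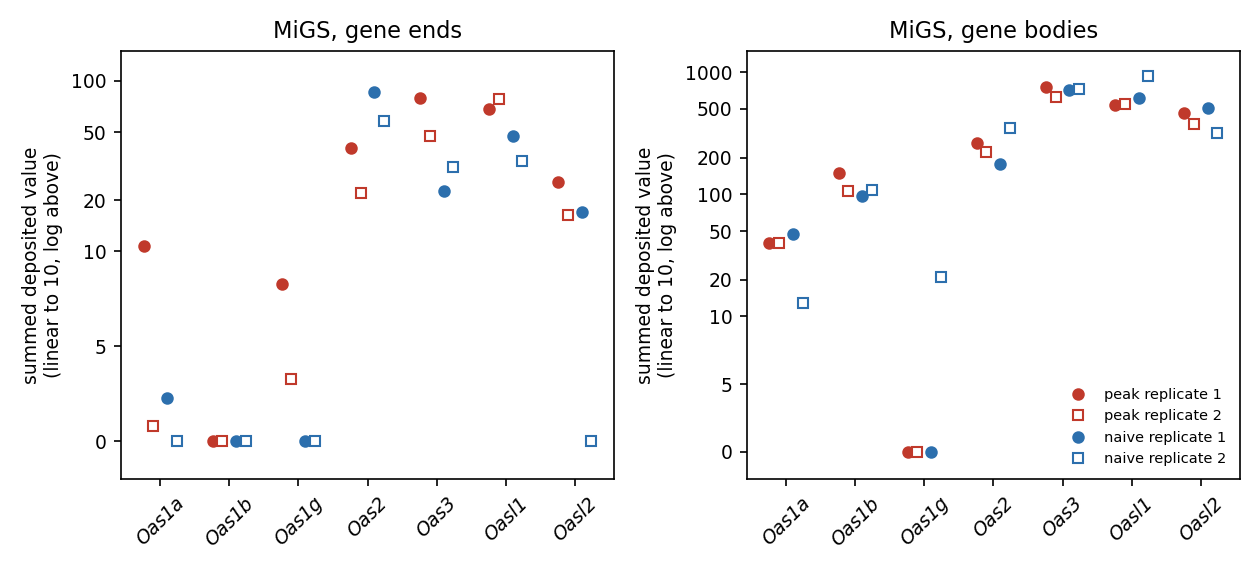
Summed deposited MiGS value per library at the gene ends (left) and gene bodies (right) of the 7 members, peak libraries in red left of naive libraries in blue, on an axis that is linear to 10 and logarithmic above. At the ends of Oas3 and Oasl1 both peak points lie above both naive points, at those of Oas2 below them, and in the bodies the groups overlap for each member but Oasl1. The share of all genes with such separation was not counted, and no member passed the test.

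Inside the genes, capture came in patches. Gene bodies leave out 500 bp at each end. Per kb of gene length, the body of Oasl1 had the most, from 39.2 to 67.7 over the 4 libraries, followed by Oas3 (26.7 to 32.1) and Oasl2 (22.2 to 35.4). Oas2 had 9.55 to 18.8, Oas1b 9.27 to 14.2, Oas1a 1.24 to 4.63 and Oas1g 0 to 1.996. The 18 listed body reads of Oas1g were all in naive replicate 2, in windows of 3 reads each. A window with reads in 1 library alone was listed from 3 reads in naive replicate 2, but from 4 in each other library. Such windows would not have been listed for another library alone, so no difference between libraries can be read from them. The gene ends of Oas1g held 10 and 4 reads in the peak libraries, against 0 and 0 in the naive libraries. Oas1d, with 0 RNA counts, had 15.9 to 26.1 per kb, and 93.4% of the reads in and within 1 kb of it lay in a single run of 7 windows. In the body of Oas3 the summed values were 758 and 630 in the peak libraries, against 721 and 729 in the naive libraries (log2 change -0.07, SE 0.37, limma, adjusted p = 0.991). In the body of Oasl1 they were 540 and 545 in the peak libraries, against 614 and 933 in the naive libraries, which did not overlap (log2 change -0.48, SE 0.38, limma, adjusted p = 0.982). Without naive replicate 2 that change was -0.18, and without naive replicate 1 it was -0.78. The bodies of the other members tested had log2 changes between -0.05 and 0.66, and their groups overlapped. Outside the members, Oas1d had body values of 92.7 and 99.6 in the peak libraries, against 152 and 139 in the naive libraries, and Oas1c had 56.3 and 22.9 in the peak libraries, against 18.2 and 20.9 in the naive libraries. Neither pair of groups overlapped, and neither difference passed (limma, adjusted p = 0.982 for each). Over all gene bodies 44.6% had a log2 change above 0. The share of all bodies whose groups did not overlap was not counted, so non-overlap in these bodies is also only a description.

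The densest patches of Oasl1, Oas3, Oasl2 and Oas1b lay inside the genes. In Oas1g the highest window lay 11438 bp after the start, at the far end of the gene. It held only 5 and 2 reads in the peak libraries, against 0 and 0 in the naive libraries. In Oasl1 the highest window (chr5:114937101-114937150) lay 13886 bp after the start, close to the far end of the gene, with deposited values of 24.0 and 33.5 in the peak libraries, against 55.6 and 110.3 in the naive libraries. In Oas3 it lay 13234 bp after the start (chr5:120764401-120764450), with values of 24.0 and 24.49 in peak, against 28.4 and 52.3 in naive. In Oasl2 it lay 8092 bp after the start (chr5:114905001-114905050), with values of 35.6 and 39.2 in peak, against 55.6 and 56.9 in naive. In Oas1b, 80.9% of the reads in and within 1 kb of the gene lay in 1 run of 11 windows (chr5:120817401-120817950), with summed values of 106.8 and 92.3 in peak, against 87.4 and 90.6 in naive. These windows were picked for their height, so their values are a description.

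**Figure D4:**
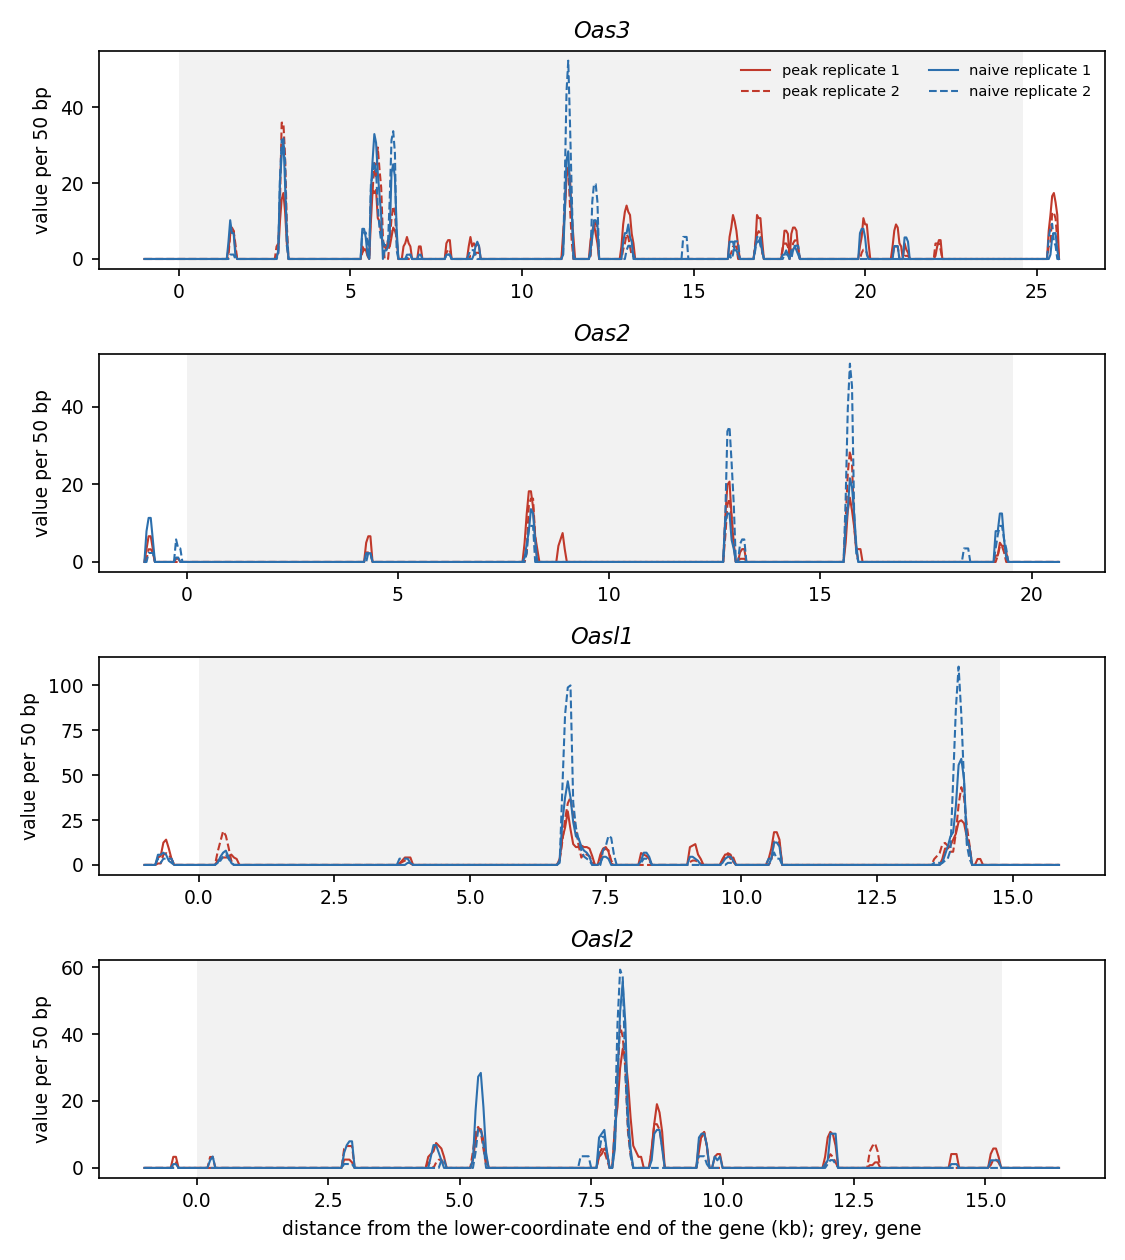
Deposited MiGS value per 50 bp window across Oas3, Oas2, Oasl1 and Oasl2, by distance from the lower-coordinate end of the gene (kb, gene in grey), with peak libraries in red and naive libraries in blue, replicate 1 solid and replicate 2 dashed, and windows that are not listed drawn at 0. The tallest patch of each gene appears in all 4 libraries and is highest in naive replicate 2. At Oasl2 the lead is narrow, with 56.9 in naive replicate 2 and 55.6 in naive replicate 1 at the highest window.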

How the data were processed

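RNA was sequenced in 1 library per condition and MiGS in 2. Per the labels' protocols, the RNA libraries were stranded total RNA with ribosomal RNA depleted. The submitters' processing notes name Bowtie2, TopHat, featureCounts, edgeR and build mm10. Of these, no role, version or strand setting is stated there or in the labels. The deposited RNA table holds raw counts per gene and the authors' FPKM. The deposited MiGS signal is reads per 50 bp window times a factor per library: 100% of values were whole reads within 0.001. Windows not listed were taken as 0 reads, on chromosomes 1 to 19; those listed reach 3 reads in some library, so the files leave out windows with fewer.

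RNA counts were scaled by TMM (edgeR 4.0.16, R 4.3.3) over the whole table, and log2 ratios carry a pseudocount of 0.5 reads. Genes under 50 counts over both libraries were left out. Counting intervals (95%) are exact (scipy 1.17.1, Python 3.11.15). MiGS values were summed over gene ends (1000 bp outside to 500 bp inside) and gene bodies with at least 20 reads, and tested by limma 3.58.1 (trend, Benjamini-Hochberg) on log2(value + 1). edgeR's quasi-likelihood test and DESeq2 1.42.0 on the recovered reads were alternatives and called 0 ends and 0 bodies. The statistics were run on simulated data. For RNA these held counting error only. For MiGS they held large set changes and a spread set below that between the peak libraries, before counting error. They therefore do not show how the tests perform on these libraries. Oas2 and Oas1b promoters were not used here.

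Members and lists were chosen with earlier results of these data known. Named genes are the members, the other Oas genes, the oligoadenylate pathway, up to 4 genes per list with the largest log2 ratio, the nearest neighbours, and the 5 genes nearest in level among those with at least 200 counts. Ifnar1, Ifnar2, Ifngr1, Cgas and Mavs fall outside that rule and were named after their values were seen. A gene of the pathway list and one of the interferon list are not reported here and were left out of those lists' counts.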

Additional observations from a re-analysis of the deposited data

How the results depend on the processing

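All 7 members were at least 2-fold higher in peak under all 8 RNA alternatives. Their log2 ratios moved past counting error in 4 of 56 cases. Upper quartile scaling moved Oas1a (2.63) and Oasl2 (3.45). The deposited FPKM with a pseudocount of 0.1 moved Oas3 (3.99) and Oasl2 (3.44). Without that pseudocount the FPKM ratios, peak over naive, were 20.5 for Oas3 and 11.5 for Oasl2, both within their counting intervals. The minimums of 1 and 200 counts only change which genes are kept, so they could not move a member's ratio. Over all genes, 1742 were higher and 1280 lower in peak, against 1495 and 1550 with library totals and 1381 and 1738 with upper quartile scaling, which shifted the median log2 ratio of all genes by -0.12 and -0.20. A minimum of 1 count gave 4291 higher and 3726 lower, and a minimum of 200 counts gave 655 lower.

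For MiGS, the replicate numbers mark no shared batch in the labels, and deviations of same-numbered libraries correlated at 0.15 (ends) and 0.09 (bodies) over only 2 pairs. With a replicate block, limma called 788 gene ends (95 higher, 693 lower) and 175 bodies (4 higher, 171 lower), and edgeR called 453 ends and 1012 bodies. The edgeR block and TMM over genes with at least 50 counts were added after seeing the data. The wider ends gave 2 calls, and leaving out each library gave 0 to 1 for ends (the 1 without naive replicate 2) and 0 to 0 for bodies. No member was called under any alternative (lowest adjusted p = 0.233, edgeR, DESeq2 and limma together). The direction turned for Oasl1 ends with wider ends (-0.54). For bodies it turned with edgeR at Oas2 (0.012, with the block 0.039) and Oas3 (0.017, with the block 0.026). Leaving out 1 library at a time turned some body changes, which ranged from -0.25 (without naive replicate 2) to 1.57 at Oas1a, from -0.54 to 0.44 at Oas2 (above 0 without peak replicate 2 or naive replicate 2), from -0.20 to 0.063 at Oas3 (above 0 without peak replicate 2), and from -0.28 to 0.39 at Oasl2 (below 0 without peak replicate 1 or naive replicate 2). The Oasl1 body change ranged from -0.78 (without naive replicate 1) to -0.18 (without naive replicate 2). The cause was not tested. With 1 RNA library per condition, no alternative could leave out an RNA replicate.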
